A study of Mus musculus with 12 samples.

Results

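The cytosolic ribosome is built from ribosomal RNA and a fixed set of ribosomal proteins, and the genes of those proteins were followed here in type 1 conventional dendritic cells (cDC1) of the mouse inguinal lymph node. Members were the protein-coding genes of the GENCODE M21 annotation whose symbol is Rpl or Rps with a number and an optional a, x, l or y, together with Rplp0, Rplp1, Rplp2 and Rpsa, and without the Rps6k kinases. They were 80 of the 53458 genes in the table, 49 of the large and 31 of the small subunit, on 19 chromosomes, with 4 on the X chromosome. Of these, 78 passed the filter on low counts, and Rpl10l and Rpl3l did not.

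RNA was sequenced from 12 libraries, 3 in each of 4 groups. The Tumor-CD40 group carried a subcutaneous tumor of KPC cells, by their usual meaning a murine pancreatic cancer line, and received a CD40 agonist, the NoTumor-CD40 group received the agonist without a tumor, the Tumor-NoCD40 group had the tumor without the agonist, and the NoTumor-NoCD40 group had neither. CD40 is the receptor by which T cell help reaches dendritic cells. The labels give no strain, age, dose, time or sort gate, and do not tell whether replicates are different animals, so every p-value here measures only the spread between these samples.

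Ribosomal protein genes belong to the most abundantly transcribed genes of any growing cell, and their products are made in matched amounts, since a protein that finds no place in a ribosome is degraded. Most of their mRNAs begin with a run of pyrimidines right at the cap, the 5′ terminal oligopyrimidine (TOP) tract, through which the mTOR pathway and the RNA-binding protein Larp1 set how strongly they are translated. Dendritic cells that are activated, for instance through CD40, move from uptake of antigen to migration and presentation, and their demand for new protein changes over that course.

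The start sites of a few members show the tract these genes are known for, and those of Rpl5, Rpl31 and Rps27l, genes with low p-values described below, are set beside them. Each line gives 20 bases before to 15 bases after the annotated start in RefSeq (GRCm38.p6), 5′ to 3′, and capitals mark the longest run of C and T that covers the start or ends or begins within a few bases of it. The start itself is the first base after those 20.
Rps6, chr4:86857353-86857387, minus strand: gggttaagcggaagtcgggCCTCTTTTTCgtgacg
Rpl35, chr2:39005117-39005151, minus strand: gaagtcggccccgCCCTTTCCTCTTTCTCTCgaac
Rpl15, chr14:18270972-18271006, minus strand: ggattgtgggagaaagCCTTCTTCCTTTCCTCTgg
Rps27, chr3:90213634-90213668, minus strand: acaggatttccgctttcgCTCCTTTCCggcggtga
Rpl31, chr1:39367831-39367865, plus strand: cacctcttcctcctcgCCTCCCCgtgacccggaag
Rpl5, chr5:107900508-107900542, plus strand: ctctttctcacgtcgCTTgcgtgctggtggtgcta
Rps27l, chr9:66946066-66946100, plus strand, first annotated start: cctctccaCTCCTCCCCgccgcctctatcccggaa
Rps27l, chr9:66946393-66946427, plus strand, second annotated start: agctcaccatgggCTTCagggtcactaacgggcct
The run measured 10 bases in Rps6, 18 in Rpl35, 17 in Rpl15, 9 in Rps27 and 7 in Rpl31, and in these it covers the start. In Rpl5, with 3 bases, and at both starts of Rps27l, with 9 and 4, it ends before the start, so a run that misses the annotated start is not particular to Rps27l.

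Promoters were listed in RefSeq for 60 of the 80 members, as 250 bases before to 50 bases after a start. A run of TCTTTC or of TCTTTT or of CTTTTC or of CTTTCC (these letters overlap) within 10 bases of a start, on the sense strand, was found in 23.3% of these members and in 2.72% of the 27025 genes with a listed promoter. On either strand, CCGGAAG, the core of an ETS factor site, was in 41.7% of the members and 9.93% of all genes, and GGGCGG, the core of an Sp1 site, was in 60% of the members and 38.2% of all genes. AAGATGG, part of a YY1 site, was in 15% of the members and 7.28% of all genes, and TATAAA was in 10% of the members and 15.7% of all genes. CCGGAAG and AAGATGG can share the letters AAG, and a match is a run of letters, not a bound site.

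Library totals of expected counts ran from 22855143 to 27163393. Levels of single genes are given below in CPM, counts scaled to a common library size with normalization factors, and differences between groups as log2 fold changes with their standard error (SE). The defining cDC1 genes were present in all libraries: Xcr1 ranged from 49.5 to 780 CPM and Clec9a from 33.2 to 357 CPM. The lowest values of both stood in NoTumor-CD40 replicate 3 (49.5 and 52.1 CPM) and Tumor-NoCD40 replicate 3 (73.2 and 33.2 CPM), which also had the highest sums over 21 genes of mature dendritic cells, 40085 and 32560 CPM, against 8218 to 30747 CPM elsewhere. Their sums over 16 cDC1 genes, 4216 and 3290 CPM, were the lowest too. Not every cDC1 gene was low there. Batf3 had 161 CPM in NoTumor-CD40 replicate 3, the highest of the series, and 87.8 CPM in Tumor-NoCD40 replicate 3. These 2 libraries are named again beside some results below, and results where they are not named can depend on them too. In bulk RNA, fewer cells of a type and less RNA per cell cannot be told apart.

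Ribosomal protein genes took between 4.78% and 8.38% of the gene-assigned expected counts of a library, and 29 of the 100 genes with the highest mean TPM (a level per transcript length, scaled to a common total) were members. In NoTumor-CD40 libraries the share was 6.09%, 6.89% and 4.78% (5.92% ± 1.06, SD, n = 3), against 7.67%, 8.38% and 7.52% (7.86% ± 0.46) in NoTumor-NoCD40 libraries. All 3 NoTumor-CD40 libraries lay below all 3 NoTumor-NoCD40 libraries, and replicate 3 was the lowest of the series. In Tumor-CD40 libraries it was 7.11%, 6.99% and 7.33% (7.14% ± 0.17), against 6.98%, 7.82% and 6.37% (7.06% ± 0.73) in Tumor-NoCD40 libraries. The Tumor-CD40 libraries lay inside the range of the Tumor-NoCD40 libraries. All 3 Tumor-CD40 libraries lay above all 3 NoTumor-CD40 libraries, while Tumor-NoCD40 and NoTumor-NoCD40 libraries overlapped.

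**Figure D1:**
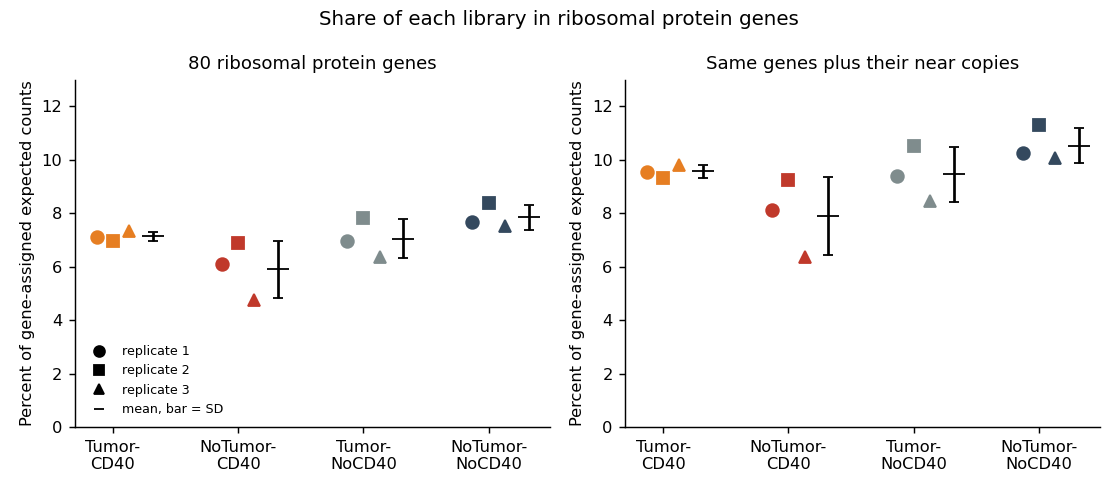
Percent of the gene-assigned expected counts of each library (vertical axes, from 0) that lay in the 80 ribosomal protein genes (left) and in the same genes plus their near copies in the genome (right), by group. Points are libraries, and the bar beside them is the mean with its SD (n = 3). The 3 NoTumor-CD40 libraries sit between 4.78% and 6.89% on the left, below the 3 NoTumor-NoCD40 libraries at 7.52% to 8.38%.

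Both subunits shared this order. Large-subunit genes held 3.30% ± 0.599 of the counts in NoTumor-CD40 libraries and 4.38% ± 0.214 in NoTumor-NoCD40 libraries, and small-subunit genes 2.62% ± 0.465 and 3.48% ± 0.251 (SD, n = 3 each). Within the libraries whose titles carry the same prefix, the NoTumor-CD40 minus NoTumor-NoCD40 difference was -1.57 percentage points for 091218 and -1.50 for 091318, and the remaining pair has different prefixes. The Tumor-CD40 minus Tumor-NoCD40 difference was 0.12, -0.83 and 0.96 points within 091218, 091318 and 091418, so its sign varied. As a sum of TPM the members held 12.8% ± 1.68 in NoTumor-CD40 libraries and 15.4% ± 1.11 in NoTumor-NoCD40 libraries, and there the groups overlapped, with 11.5% to 14.7% against 14.3% to 16.5%.

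The members ranged widely in level. By mean TPM over the 12 libraries, Rpl13a with 18693 TPM and Rps15a with 11389 TPM were the highest, and among those that followed were Rps19 with 3958, Rpl18 with 3885, Rps24 with 3599, Rpsa with 3584, Rplp1 with 3271 and Rpl41 with 2946 TPM. The first ranks rest on very short annotated transcripts. A transcript of 176 bases, Rpl13a-219, held 7.30% of the counts of Rpl13a and 75.9% of its TPM, and one of 250 bases, Rps15a-203, held 51.4% of the counts of Rps15a and 94.8% of its TPM. Counts per kilobase were also taken, with the counts of each transcript divided by its own full annotated length and summed per gene. By that measure Rpl13a stayed at rank 1, while Rpsa, the laminin-receptor-like protein of the small subunit, ranked 2 and Rps15a ranked 17. The very short transcripts still enter it.

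The paralogs with an l suffix were at the other end. Rpl10l, a testis form of Rpl10, was at 0 in 11 of 12 libraries with a mean of 0.00283 TPM, and Rpl3l, a muscle form of Rpl3, averaged 0.0184 TPM. Rpl39l, another testis form, averaged 1.41 TPM, with 0.247, 0.959 and 2.22 CPM in NoTumor-CD40 libraries and 1.34, 1.15 and 0.861 CPM in NoTumor-NoCD40 libraries, while Rpl39 itself averaged 1315 TPM. Rps27l was the exception among them with 304 TPM, and Rps4x, the X-linked form of Rps4, averaged 1762 TPM.

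Many members share their reads with near copies elsewhere in the genome, which were placed by sequence (at least 90% identity over at least 70% of the copy). This match found 1075 copies of 77 members, 1059 of them annotated as pseudogenes. The members themselves held 74.2% to 75.2% of the counts of members and copies together in every library. In 44 members over 90% of these counts lay on the gene, in 13 between 50% and 90%, and in 23 at most 50%. In 5 members under 10% lay on the gene, which were Rps27 with 0.708%, Rpl5 with 0.908%, Rpl12 with 1.87%, Rps12 with 2.33% and Rpl27 with 8.71%. For Rpl5 the copy Gm15500 on chromosome 7, identical over the aligned bases, held 99.0% of the counts, and for Rps27 the retrogene Rps27rt on chromosome 9 held 84.4%. Values of these genes alone are uncertain for that reason, and their fold changes are given below also for the gene plus its copies. The counts of members lay on annotated protein-coding transcripts for 78.5% to 80.2%, on retained-intron transcripts for 6.46% to 7.45% and on transcripts marked for nonsense-mediated decay for 6.95% to 8.48%. The last share was 7.50% to 8.27% in NoTumor-CD40 libraries and 7.34% to 7.48% in NoTumor-NoCD40 libraries, which nearly touched but did not overlap. Transcripts annotated as processed transcripts held 6.09% to 6.26% and 5.58% to 6.05% there, also without overlap. Retained introns held 6.46% to 7.34% and 6.59% to 7.25%, which overlapped.

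**Figure D2:**
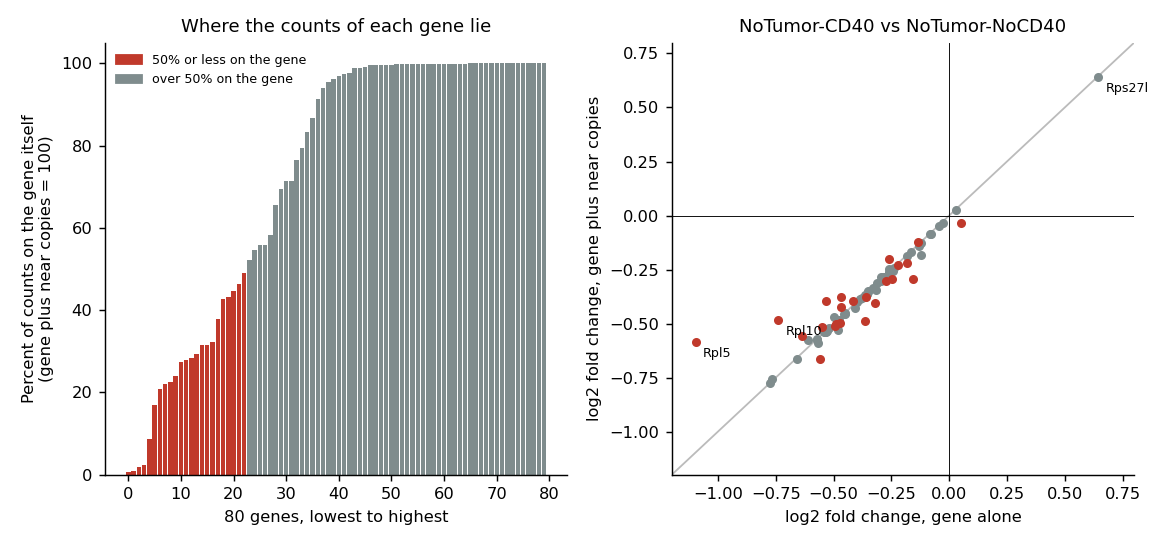
Left, percent of the counts of each gene and its near copies that lay on the gene itself, for the 80 ribosomal protein genes from lowest to highest; 23 genes hold at most 50%. Right, log2 fold change of NoTumor-CD40 over NoTumor-NoCD40 libraries for the gene alone (horizontal) and for the gene plus its copies (vertical), with the line of equal values; Rpl5 lies at -1.10 alone and -0.59 with its copies, and most other genes lie near the line.

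Of the 4 comparisons, that of the agonist without tumor had the member median farthest from 0. In NoTumor-CD40 over NoTumor-NoCD40 libraries 75 of the 78 members had a log2 fold change below 0, against 52.3% of all genes tested, with a median of -0.36 beside -0.04 for all 18095 genes. In edgeR's quasi-likelihood test 0 of 78 members passed the threshold of 0.05 on the adjusted p, which 1.44% of all genes did (1.36% higher, 0.0829% lower). Limma-voom also called 0 members, beside 120 of all 18095 genes. DESeq2 called 4 members, beside 923 of all 18095 genes (774 higher, 149 lower). At an unadjusted p under 0.05 there were 30 members with lower and 1 with higher values, beside 8.48% of all genes lower and 9.89% higher. In 39 members all NoTumor-CD40 libraries lay below all NoTumor-NoCD40 libraries and in 1 above, and the shares over all genes were 12% and 11.2%. The 1836 other genes averaging 100 CPM or more had a median of 0.11. Single libraries moved these values. Without NoTumor-CD40 replicate 3 the median was -0.23, with 75 members below 0. Lower values at an unadjusted p under 0.05 were then found in 9 members, beside 643 of all 19749 genes. That last count was 13 without NoTumor-NoCD40 replicate 2, beside 956 of 19773 genes. It was 45 without NoTumor-CD40 replicate 2, beside 2198 of 19662 genes, and 45 without NoTumor-NoCD40 replicate 3, beside 1239 of 19740.

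**Figure D3:**
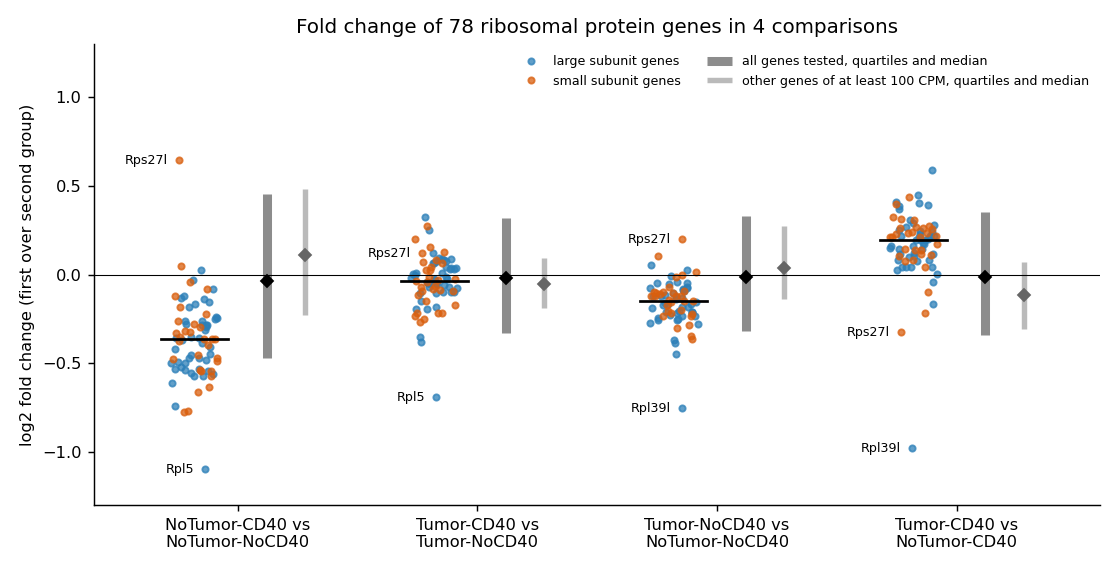
Log2 fold change of each of the 78 ribosomal protein genes tested (points, large subunit blue, small subunit orange, black line the median) in 4 comparisons, first over second group. The bars beside them are the quartiles, with the median as a diamond, of all 18095 genes tested and of 1836 other genes averaging 100 CPM or more. The points lie mostly below 0 in NoTumor-CD40 over NoTumor-NoCD40 libraries (median -0.36) and around 0 in Tumor-CD40 over Tumor-NoCD40 libraries (median -0.03).

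Rpl5, which with Rpl11 and the 5S RNA forms the particle that can bind Mdm2 and stabilize p53, had the lowest p. Its level was 7.28, 13.1 and 11.3 CPM in NoTumor-CD40 libraries and 20, 24.4 and 23.5 CPM in NoTumor-NoCD40 libraries, with no overlap. The log2 fold change was -1.10 (SE 0.28, edgeR adjusted p = 0.067). With its copies added it was -0.59 (adjusted p = 0.15), and of the counts on Rpl5 itself 54.7% lay on retained-intron transcripts. Rpl11, its partner, had 347, 324 and 320 CPM in NoTumor-CD40 libraries and 395, 365 and 344 CPM in NoTumor-NoCD40 libraries, which overlapped (log2 fold change -0.16). Only 29.4% of the counts of Rpl11 and its copies lay on the gene, and with its copies added it was at -0.30.

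Rpl21, a large-subunit protein, had 397, 382 and 300 CPM in NoTumor-CD40 libraries and 530, 526 and 526 CPM in NoTumor-NoCD40 libraries, without overlap (log2 fold change -0.55, SE 0.16, edgeR adjusted p = 0.104). Rpl31 had 150, 177 and 116 CPM in NoTumor-CD40 libraries and 204, 238 and 208 CPM in NoTumor-NoCD40 libraries (-0.56, adjusted p = 0.14). With copies added Rpl31 was at -0.66 and Rpl21 at -0.51. In both genes the lowest NoTumor-CD40 value was that of replicate 3. With DESeq2 in place of edgeR, 4 members passed the threshold, all lower in NoTumor-CD40 libraries, among them Rpl5 and Rpl21. Of all 18095 genes DESeq2 called 923 there, 149 of them lower.

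A few members with long-known roles outside peptide bond formation are given by their values, as 75 of the 78 members lay below 0 whatever their role. Rps6, the phosphorylation target of the S6 kinases, had 474, 522 and 285 CPM in NoTumor-CD40 libraries and 736, 656 and 598 CPM in NoTumor-NoCD40 libraries, without overlap (-0.64, adjusted p = 0.15). These are values of the gene alone, and the copy Rps6-ps4 held 71.7% of the counts of Rps6 and its copies. Rpl13a, the subunit of a complex that represses translation of inflammatory mRNAs in human monocytes, had 2080, 2449 and 1590 CPM in NoTumor-CD40 libraries, against 2715, 3068 and 2597 CPM in NoTumor-NoCD40 libraries, without overlap (-0.45, adjusted p = 0.25). Rps3, which in human cells also takes part in NF-kB binding to DNA, had 1803, 2132 and 1226 CPM in NoTumor-CD40 libraries and 2398, 2903 and 2185 CPM in NoTumor-NoCD40 libraries (-0.54, adjusted p = 0.24). Rps27a, which is made as a fusion with ubiquitin, was at -0.54, Rpl22, which has a part in lymphocyte development in mice, at -0.36, and Rpl10, the last large-subunit protein to join, at -0.74 alone and -0.48 with its copies.

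The stalk proteins and Rpsa sit on the surface of the ribosome. Rplp0, the base of the stalk that recruits elongation factors, had 2787, 3286 and 2047 CPM in NoTumor-CD40 libraries and 3375, 3897 and 3082 CPM in NoTumor-NoCD40 libraries, which overlapped (-0.35, adjusted p = 0.42). Its partners Rplp1 and Rplp2 were at -0.28 and -0.08, and Rpsa, like Rplp0, was at -0.35, near the member median. Rpl38, needed in mice for the translation of a set of Hox mRNAs, was at -0.25, and Rpl41, the smallest ribosomal protein, was at -0.28. The value of Rpl38 is that of the gene alone, and its copy Rpl38-ps2 held 53.7% of the counts of Rpl38 and its copies. Nearer to 0 were Rps19, the most often mutated gene in human Diamond-Blackfan anemia, at -0.04, Rpl34 at -0.03 and Rps24 at -0.08.

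Rps27l was the single member with a higher value at an unadjusted p under 0.05 and the single member whose NoTumor-CD40 libraries all lay above the NoTumor-NoCD40 libraries. It encodes a close relative of Rps27 that is induced by p53 in human cells and binds Mdm2. Its level was 167, 121 and 178 CPM in NoTumor-CD40 libraries and 116, 113 and 68.8 CPM in NoTumor-NoCD40 libraries, a log2 fold change of 0.65 (SE 0.21, edgeR adjusted p = 0.14). In Tumor-CD40 libraries it had 133, 122 and 118 CPM, against 126, 113 and 104 CPM in Tumor-NoCD40 libraries, which overlapped (0.12). Rps27 itself was listed at 12.7, 6.31 and 6.49 CPM in NoTumor-CD40 libraries and 10.6, 6.08 and 7.90 CPM in NoTumor-NoCD40 libraries, with a log2 fold change of 0.05 alone and -0.03 with its copies.

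The coding sequences are printed because reads must tell the 2 genes apart. Both are 255 bases long in GRCm38, Rps27 on the minus strand of chromosome 3 (gene at 90212522 to 90213651) and Rps27l on the plus strand of chromosome 9 (gene at 66946086 to 66949516). Capitals mark the 61 bases at which they differ, and the longest stretch without a difference is 11 bases.
Rps27: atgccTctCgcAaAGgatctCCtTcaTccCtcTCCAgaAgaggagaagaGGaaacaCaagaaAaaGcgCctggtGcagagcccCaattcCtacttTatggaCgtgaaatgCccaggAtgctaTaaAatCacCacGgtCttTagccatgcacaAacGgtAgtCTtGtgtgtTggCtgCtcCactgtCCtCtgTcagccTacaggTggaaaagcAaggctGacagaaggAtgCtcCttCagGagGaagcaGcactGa
Rps27l: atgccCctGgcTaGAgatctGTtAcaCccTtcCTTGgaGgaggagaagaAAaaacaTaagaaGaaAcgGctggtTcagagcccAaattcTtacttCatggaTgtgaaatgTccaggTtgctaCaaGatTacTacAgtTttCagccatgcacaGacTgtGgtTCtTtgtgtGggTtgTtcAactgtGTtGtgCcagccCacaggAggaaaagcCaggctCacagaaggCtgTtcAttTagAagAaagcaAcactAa
Of the counts of Rps27l and its own near copies, 99.98% lay on the gene.

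The shift was similar in size in both subunits and with or without near copies, which was not tested. In NoTumor-CD40 over NoTumor-NoCD40 libraries the median was -0.37 over 47 large-subunit genes and -0.36 over 31 small-subunit genes, with 19 and 11 of them lower at an unadjusted p under 0.05. Over the 42 genes with more than 90% of their counts on the gene it was -0.35, and over the other 36 it was -0.47. Adding the counts of all near copies to their genes gave a median of -0.38, with 76 of 78 below 0 and again no member past the threshold.

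**Figure D4:**
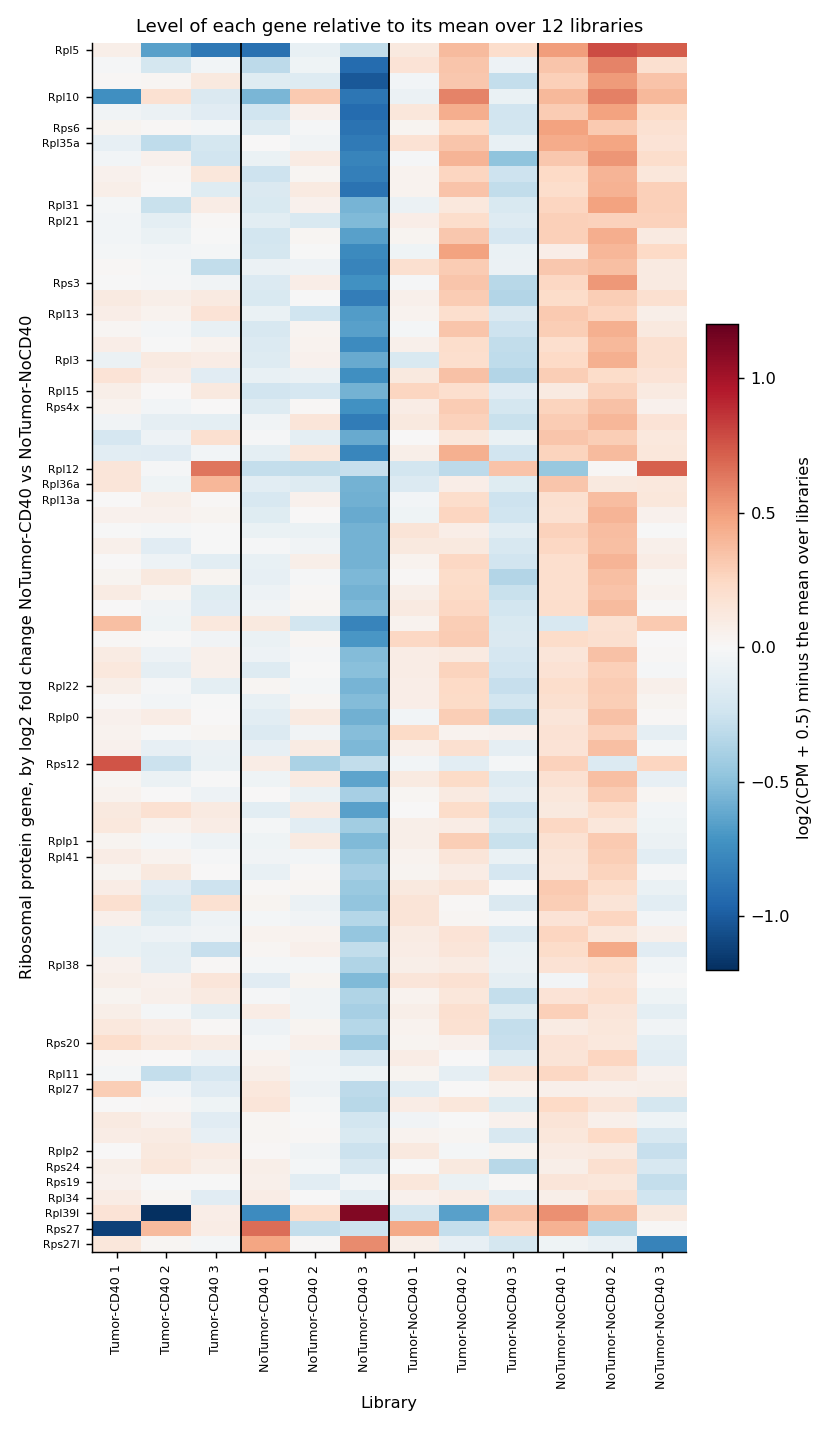
Level of the 78 ribosomal protein genes that passed the filter in each of the 12 libraries, as log2(CPM + 0.5) minus the mean of the gene over the libraries, with genes ordered by their fold change in NoTumor-CD40 over NoTumor-NoCD40 libraries and the names of some of them. The median of a column is lowest in NoTumor-CD40 replicate 3 (-0.54) and highest in NoTumor-NoCD40 replicate 2 (0.30).

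Members moved together from library to library. For 56 of 78, the level correlated at r above 0.8 with the mean of the other members over the 12 libraries, and the median r was 0.93; the libraries share their depth and composition, so this is a description. The 7 members under 0.5 were Rps27l (-0.51), Rpl39l (-0.30), Rps27 (-0.08), Rpl12 (-0.04), Rps19 (0.22), Rps12 (0.26) and Rpl11 (0.26), and Rps27, Rpl12 and Rps12 are among those with under 10% of their counts on the gene. Within groups, the SD of log2 CPM had a median of 0.22 over the members with a count in every library, against 0.24 over other genes at or above 100 CPM. Of 9647 other protein-coding genes averaging 5 CPM or more, the 10 whose pattern over the 12 libraries was most like the mean of the members were Eef1a1 (r = 0.99), Nme2, Rbbp7, Mrpl51, Cct8, Cyc1, Rps3a1, Rap1a, Prdx6 and Rpl10-ps3 (r = 0.97). Eef1a1 is the main elongation factor and its mRNA also carries a TOP tract, and Rps3a1 encodes a ribosomal protein whose symbol falls outside the rule. Rpl10-ps3 is a near copy of the member Rpl10, identical over the aligned bases, so the 2 share reads and its likeness is not independent of the members.

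Rps24 is spliced to transcripts that differ in very short 3′ exons, and their balance varied between libraries. Rps24-203 held between 36.3% and 62.7% of its counts and Rps24-201 at most 36.0%. Rps24-203 had 51.9%, 62.7% and 44.8% in NoTumor-CD40 libraries and 44.6%, 57.3% and 55.2% in NoTumor-NoCD40 libraries, so the groups overlapped. In Tumor-CD40 libraries it had 56.2%, 53.0% and 54.3%, against 46.9%, 62.3% and 36.3% in Tumor-NoCD40 libraries, which also overlapped.

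With tumor, the agonist comparison had member values around 0. In Tumor-CD40 over Tumor-NoCD40 libraries 48 of 78 were below 0 (51.8% of all genes), the median was -0.03 beside -0.02 for all genes, and 0 members passed the threshold in edgeR, limma-voom or DESeq2, while in edgeR 0.685% of all genes did (0.641% higher, 0.0442% lower). At an unadjusted p under 0.05 there was 1 lower member, beside 4.34% of all genes, and 0 higher, beside 5.62%. It was Rpl5, with 14.8, 8.74 and 7.51 CPM in Tumor-CD40 libraries and 15.2, 18.3 and 16.3 CPM in Tumor-NoCD40 libraries (-0.69, SE 0.28, adjusted p = 0.42), and with its copies it was at -0.11. All Tumor-CD40 libraries lay below all Tumor-NoCD40 libraries in Rpl35a, Rpl5, Rps14 and Rpsa and above them in Rps20, against 5.41% and 6.50% of all genes. The next lowest p-values below 0 were those of Rpl35a (-0.35), Rpl11 (-0.20), Rpl10 (-0.38) and Rps29 (-0.25), and above 0 those of Rpl36a (0.25), Rps20 (0.20), Rpl12 (0.33), Rps12 (0.27) and Rps24 (0.16), all with an adjusted p of at least 0.64. With copies added Rpl11 was at -0.12, Rpl10 at -0.25, Rpl12 at 0.16 and Rps12 at 0.07. The sign of the median depended on single libraries. It was 0.06 without Tumor-NoCD40 replicate 2 and -0.12 without Tumor-NoCD40 replicate 3. Fitting the title prefix as a block, which pairs these 2 groups, gave a median of -0.02 and no member past the threshold.

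Markers of B cells stood apart in the Tumor-CD40 group. Their sum over 16 genes was 1446, 1232 and 3396 CPM in Tumor-CD40 libraries, against 463, 409 and 224 CPM in Tumor-NoCD40 libraries, 366 to 537 CPM in NoTumor-CD40 libraries and 324 to 415 CPM in NoTumor-NoCD40 libraries. Of the 16, 15 had a log2 fold change above 0 in Tumor-CD40 over Tumor-NoCD40 libraries (median 3.12). In edgeR 11 of them were higher past the threshold, beside 0.641% of all genes. Among these was Ms4a1 with a log2 fold change of 3.93 (SE 0.54, edgeR adjusted p = 0.0056). In Tumor-CD40 over NoTumor-CD40 libraries all 16 were above 0 (median 2.85) and 6 were higher past the threshold, beside 0.193% of all genes. Of 16 genes of monocytes and macrophages 11 were above 0 and 5 below in Tumor-CD40 over Tumor-NoCD40 libraries (median 1.198). In edgeR 3 of them were higher past the threshold, beside 0.641% of all genes. Their sums overlapped, with 375 to 499 CPM in Tumor-CD40 libraries and 267 to 622 CPM in Tumor-NoCD40 libraries. In Tumor-CD40 over NoTumor-CD40 libraries 11 were also above 0 and 5 below (median 1.226). There 2 were higher past the threshold, beside 0.193% of all genes. The NoTumor-CD40 sums, 217 to 533 CPM, overlapped with those of Tumor-CD40 libraries too. The part of these cells in the member values was not tested.

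The tumor without agonist was set against NoTumor-NoCD40 libraries. In Tumor-NoCD40 over NoTumor-NoCD40 libraries 73 of 78 members were below 0 (51.0% of all genes) with a median of -0.15 beside -0.01 for all genes, and 0 members passed the threshold in edgeR, limma-voom or DESeq2, with 0% of all genes in edgeR. At an unadjusted p under 0.05 there was 1 lower member, beside 2.39% of all genes, and 0 higher, beside 3.43%. It was Rpl31, with 162, 186 and 150 CPM in Tumor-NoCD40 libraries and 204, 238 and 208 CPM in NoTumor-NoCD40 libraries, without overlap (-0.38, SE 0.18, edgeR adjusted p = 0.775). Rpl21, Rpl27, Rpl31, Rpl36a and Rpl5 had all Tumor-NoCD40 libraries below all NoTumor-NoCD40 libraries and none above, against 4.92% and 4.06% of all genes. Rpl27 was at -0.09 alone and -0.05 with its copies. Rpl3 (-0.37), Rpl5 (-0.45, with copies -0.29) and Rpl36a (-0.27) were among those that followed in p, and above 0 stood Rps27l (0.20), Rps27 (0.10, with copies 0.09), Rplp2 (0.05), Rpl29 (0.03) and Rps19 (0.01). Without Tumor-NoCD40 replicate 3, which is among the libraries with the lowest Xcr1 and Clec9a, the median was -0.04; it was -0.07 without NoTumor-NoCD40 replicate 2 and -0.23 without Tumor-NoCD40 replicate 2. The count of lower members at an unadjusted p under 0.05 was 4 in that last case, beside 1593 of all 19729 genes.

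Markers of other cells and of cell state differed in the same comparison, with 0 of their genes past the threshold in edgeR. All 12 T cell markers had a log2 fold change above 0 (median 0.88), and their sum was 743, 255 and 1159 CPM in Tumor-NoCD40 libraries and 349, 397 and 407 CPM in NoTumor-NoCD40 libraries, which overlapped. Of the mature dendritic cell genes 19 of 20 were above 0 (median 0.68), with sums of 27478, 9219 and 32560 CPM in Tumor-NoCD40 libraries and 20502, 12054 and 8218 CPM in NoTumor-NoCD40 libraries. Of the cDC1 genes 14 of 16 were below 0 (median -0.53), with sums of 5841, 13530 and 3290 CPM in Tumor-NoCD40 libraries and 8906, 12016 and 11645 CPM in NoTumor-NoCD40 libraries. Genes of tissue dissociation stress summed to 3298, 4074 and 2272 CPM in Tumor-NoCD40 libraries, all below the 5493, 4368 and 5836 CPM in NoTumor-NoCD40 libraries, with 12 of 14 below 0 (median -0.82). Of the 16 B cell markers 12 were above 0 (median 0.56). The part of these genes' cells or states in the member values was not tested.

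The tumor with agonist was set against NoTumor-CD40 libraries. In Tumor-CD40 over NoTumor-CD40 libraries 72 of 78 members were above 0, the median was 0.20 beside -0.01 for all genes, and 0 members passed the threshold in edgeR, limma-voom or DESeq2, while in edgeR 0.199% of all genes did (0.193% higher, 0.00553% lower). At an unadjusted p under 0.05 there were 3 higher members, Rpl36a, Rpl15 and Rpl13, beside 5.47% of all genes, and 0 lower, beside 3.86%. Rpl36a, on the X chromosome, had 87.9, 76.8 and 104.9 CPM in Tumor-CD40 libraries and 72.9, 71.5 and 53.4 CPM in NoTumor-CD40 libraries, without overlap (0.45, SE 0.18, edgeR adjusted p = 0.47). Rpl15 was at 0.39, Rpl13 at 0.41 and Rpl12 at 0.59. With copies added they were at 0.30, 0.38 and 0.42, Rpl36a was at 0.50, and of the 3 only Rpl36a still had an unadjusted p under 0.05 (edgeR unadjusted p = 0.17 for Rpl15 and 0.097 for Rpl13). On the other side Rps27l was at -0.32, Rpl11 at -0.16 (with copies 0.01), Rps14 at -0.10, Rps27 at -0.21 (with copies -0.14) and Rpl39l at -0.98, the last with 0 counts in 1 library. All Tumor-CD40 libraries lay above all NoTumor-CD40 libraries in 17 members and below them in none, against 6.68% and 6.20% of all genes. Without NoTumor-CD40 replicate 3 the median was 0.07, with 57 members above 0, and without NoTumor-CD40 replicate 2 it was 0.30. The count of higher members at an unadjusted p under 0.05 was 17 with the title prefix as a block, beside 1167 of all 18095 genes. It was 11 without NoTumor-CD40 replicate 2, beside 1240 of 19662 genes, and 5 without NoTumor-CD40 replicate 1, beside 897 of 19620. Without Tumor-CD40 replicate 1 it was 1, beside 918 of 19685 genes. It was 0 without NoTumor-CD40 replicate 3, beside 771 of 19749 genes, and 0 without Tumor-CD40 replicate 3, beside 779 of 19716. The 2 agonist comparisons and the 2 tumor comparisons share libraries, so their values are only set side by side.

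The difference between the agonist effects with and without tumor was tested as an interaction. It was above 0 in 74 of 78 members with a median of 0.35 beside 0.03 for all genes, and 0 members passed the threshold in edgeR, limma-voom or DESeq2, with 0% of all genes in edgeR. At an unadjusted p under 0.05 there were 3 higher members, beside 3.96% of all genes, and 0 lower, beside 5.84%. Among the lowest p-values were those of Rpl36a (0.72, SE 0.25) and Rpl13 (0.60, SE 0.24), each with an edgeR adjusted p of 0.495, then Rpl3 (0.62) and Rpl31 (0.53). With copies added Rpl36a was at 0.66 and Rpl13 at 0.53. Then 1 member, Rpl36a, was higher at an unadjusted p under 0.05, beside 707 of all 17832 genes. Below 0 stood Rps27l (-0.52), Rps27 (-0.32, with copies -0.22), Rpl39l (-0.22) and Rpl11 (-0.04, with copies 0.17). The count of higher members at an unadjusted p under 0.05 was 16 with the title prefix as a block and 10 with limma-voom. The counts over all 18095 genes there were 763 and 716. It was 19 members without NoTumor-CD40 replicate 2, beside 1144 of 19662 genes, and 18 without Tumor-NoCD40 replicate 2, beside 1551 of 19729. Without NoTumor-NoCD40 replicate 3 it was 8, beside 615 of 19740 genes. With any other library left out it was between 2 and 5, beside between 493 of 19749 and 810 of 19786 genes. Without NoTumor-CD40 replicate 3 the median was 0.21, and without it and Tumor-NoCD40 replicate 3 it was 0.12.

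Other genes of the ribosome and of translation were read from 6 lists, and none of their genes passed the threshold in any comparison. The 7 ribosomal proteins with other symbols had a median of -0.40 in NoTumor-CD40 over NoTumor-NoCD40 libraries and -0.07 in Tumor-CD40 over Tumor-NoCD40 libraries; Rps3a1 was at -0.63, the scaffold Rack1 at -0.50, and Fau, which is made as a fusion with a ubiquitin-like protein, at -0.10. The 9 genes tested of the elongation list, which also holds the kinase Eef2k and Eef1e1, had medians of -0.35 and 0.06 in these comparisons. The 37 initiation factors had -0.15 and -0.08, and 16 other genes with TOP mRNAs -0.21 and -0.09. These lists overlap. Eif3e, Eif3f, Eif3h and Eif4b stand in both the TOP and the initiation list, and Npm1 in the TOP list and that of ribosome biogenesis. Eef2k is also in the list of control genes given below.

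The 63 genes of ribosome biogenesis, which process ribosomal RNA and assemble the subunits in the nucleolus, had a median of -0.41 in NoTumor-CD40 over NoTumor-NoCD40 libraries, with 57 below 0, and of 0.09 in Tumor-CD40 over Tumor-NoCD40 libraries, with 24 below 0. In Tumor-CD40 over NoTumor-CD40 libraries the median was 0.40, with 59 above 0. Nop56, a core protein of box C/D snoRNPs, was at -0.80 (edgeR adjusted p = 0.073) in NoTumor-CD40 over NoTumor-NoCD40 libraries, its partner Nop58 at -0.74, and Nat10, which acetylates ribosomal RNA, at -0.95. The 35 subunits and factors of RNA polymerases I and III had medians of -0.26 without and 0.02 with tumor.

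A further list held 38 genes that control the making of ribosomal proteins (mTOR pathway, Myc and its partners, Larp1 and related genes). Of these, 2 were higher past the threshold in NoTumor-CD40 over NoTumor-NoCD40 libraries, beside 1.36% of all genes. They were Pdcd4, an inhibitor of the helicase eIF4A (log2 fold change 1.26, SE 0.24, edgeR adjusted p = 0.022), and Mknk2, a kinase of eIF4E (0.77, SE 0.17, adjusted p = 0.043). The median of the list was -0.12, with 16 genes above 0 and 22 below. Larp1 had 196, 216 and 168 CPM in NoTumor-CD40 libraries and 147, 182 and 203 CPM in NoTumor-NoCD40 libraries, and Mtor had 55.0, 67.5 and 66.5 CPM in NoTumor-CD40 libraries and 60.8, 66.0 and 68.7 CPM in NoTumor-NoCD40 libraries, both overlapping. The 15 genes of ribosomal protein turnover and the p53 link had a median of -0.07, with 6 above 0 and 9 below and none past the threshold. Their sum was 1362, 1336 and 1436 CPM in NoTumor-CD40 libraries and 1176, 1101 and 1183 CPM in NoTumor-NoCD40 libraries, without overlap. Cdkn1a had 331, 199 and 286 CPM against 165, 111 and 78.7 CPM there. Trp53 went the other way, with 75.7, 93.0 and 63.4 CPM against 95.1, 115 and 96.1 CPM, and Mdm2 overlapped.

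**Figure D5:**
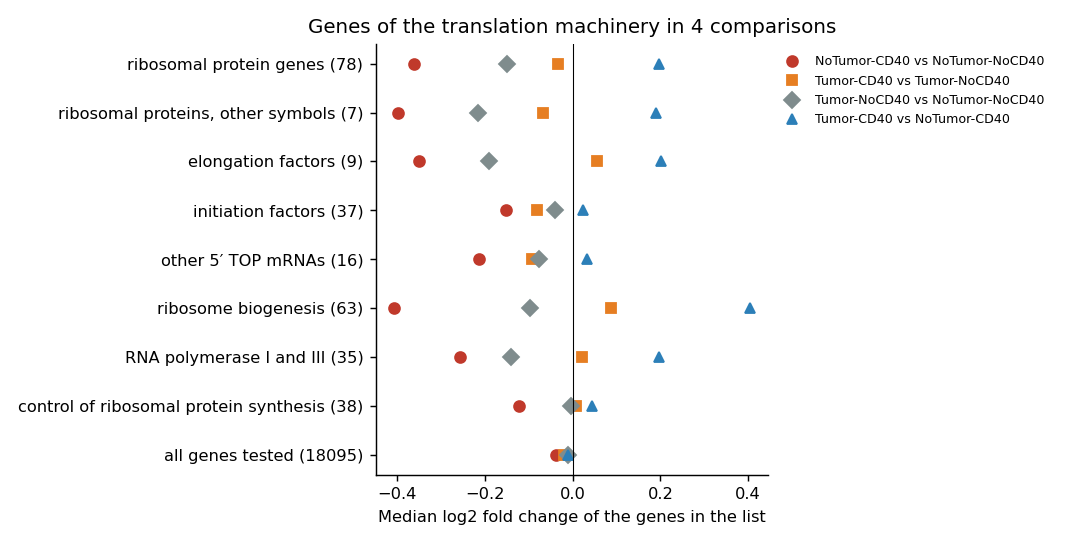
Median log2 fold change (horizontal axis) of the 78 ribosomal protein genes, of 7 lists of other genes of ribosomes and translation and of all genes tested, in 4 comparisons, first over second group; the number of genes tested is in parentheses. The circles (NoTumor-CD40 over NoTumor-NoCD40) of the ribosomal protein genes and of ribosome biogenesis lie at -0.36 and -0.41, and the triangles (Tumor-CD40 over NoTumor-CD40) at 0.20 and 0.40.

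Markers of dendritic cell state varied alongside. The sum over the 21 mature dendritic cell genes was 30747, 18294 and 40085 CPM in NoTumor-CD40 libraries, against 20502, 12054 and 8218 CPM in NoTumor-NoCD40 libraries. All 20 tested were above 0, and 5 were higher past the threshold, beside 1.36% of all genes. Among these 5 was Ccr7, the receptor that guides dendritic cells to lymph nodes. It had 2053, 1368 and 3251 CPM in NoTumor-CD40 libraries and 839, 582 and 390 CPM in NoTumor-NoCD40 libraries (log2 fold change 1.88, edgeR adjusted p = 0.033). In Tumor-CD40 libraries the sum was 20908, 16633 and 16388 CPM, against 27478, 9219 and 32560 CPM in Tumor-NoCD40 libraries, where none passed the threshold. The 16 genes of the cell cycle summed to 785, 879 and 513 CPM in NoTumor-CD40 libraries, below the 1061, 1413 and 948 CPM in NoTumor-NoCD40 libraries, and all 16 had a log2 fold change below 0 with none past the threshold. The library with the lowest share of ribosomal protein counts, NoTumor-CD40 replicate 3, had the highest mature sum and the lowest cell cycle sum of the series. The 16 genes of cDC1 identity summed to 6340, 10028 and 4216 CPM in NoTumor-CD40 libraries and 8906, 12016 and 11645 CPM in NoTumor-NoCD40 libraries, with 13 of 16 below 0 and none past the threshold. The 14 genes of tissue dissociation stress summed to 2768, 4409 and 1963 CPM in NoTumor-CD40 libraries and 5493, 4368 and 5836 CPM in NoTumor-NoCD40 libraries. In Tumor-CD40 over NoTumor-CD40 libraries all 20 mature dendritic cell genes tested were below 0 (median -0.55) and all 16 cell cycle genes above 0 (median 0.50). For the interaction 19 of the 20 mature genes were below 0 (median -1.26) and all 16 cell cycle genes above 0 (median 0.81). None of them passed the threshold in either. The part of dendritic cell state, cell cycle and handling in the member values was not tested.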

How the data were processed

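RNA came from a Qiagen RNeasy Plus Micro kit and libraries from a NEBNext Ultra II Directional kit, per the labels' protocols. Salmon and the mm10 build are named per the submitters' processing notes; the version and annotation release are not given in the sources used here, and the tables' names speak of sailfish, an earlier program. The authors deposited expected counts of each transcript, not normalized. They also deposited TPM, which is scaled by length and total. Of 136288 transcripts, 136176 were assigned to 53458 genes with GENCODE M21 and summed, and expected counts were rounded; the other 112 held at most 0.0457% of a library and were left out.

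Groups were compared with edgeR 4.0.16 (R 4.3.3): TMM, filterByExpr (minimum count 10, total 15), 18095 genes, the 4 groups over all 12 libraries, glmQLFit with legacy = FALSE, two-sided quasi-likelihood tests and Benjamini-Hochberg adjustment over all genes with a threshold of 0.05. The test was tried on simulated data. Near copies were matched with blastn 2.17.0, a step chosen after seeing the data. Alternatives were run with DESeq2 1.42.0 and limma 3.58.1. Levels, shares and list medians have no test.

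The members and lists were chosen with earlier results of these data known. Genes named are the 10 highest by TPM, paralogs, a panel of roles, and the 5 lowest p-values per direction in each comparison; some genes of other lists were chosen after their values were seen, and a few genes the rule names are not reported here. The titles' prefixes are shared across groups, and the labels do not say what they mean. Deviations of same-prefix libraries from their group means correlated at 0.15, 0.24 and 0.18 between Tumor-CD40 and Tumor-NoCD40. Over all 15 same-prefix pairs of libraries from different groups r ran from -0.006 to 0.577, with 13 over 0.1. The reported tests used no pairing, and the prefix was fitted as a block only as an alternative.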

Additional observations from a re-analysis of the deposited data

How the results depend on the processing

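The count of members past the threshold was 0 under every alternative run in the comparisons Tumor-CD40 over Tumor-NoCD40, Tumor-NoCD40 over NoTumor-NoCD40 and Tumor-CD40 over NoTumor-CD40, or in the interaction; in NoTumor-CD40 over NoTumor-NoCD40 the count was 4 with DESeq2 (among them Rpl5 and Rpl21) and between 0 and 5 when a library was left out, 5 without NoTumor-CD40 replicate 2 and 1 without Tumor-NoCD40 replicate 2. DESeq2 called 923 of all 18095 genes there against 261 in edgeR, and the count over all genes ranged from 22 to 946 over all alternatives. It was 946 of 19662 genes without NoTumor-CD40 replicate 2 and 617 of 19729 without Tumor-NoCD40 replicate 2. With a library left out, the member median ranged from -0.47 to -0.23 (agonist without tumor), -0.12 to 0.06 (agonist with tumor), -0.23 to -0.04 (tumor without agonist), 0.07 to 0.30 (tumor with agonist) and 0.21 to 0.45 (interaction). With both libraries lowest in Xcr1 left out, chosen after seeing the data, the interaction median was 0.12, with 64 of 78 members above 0. The title prefix as a replicate block gave 0 members past the threshold in each comparison and medians of -0.36, -0.02, -0.13, 0.21 and 0.34. With this block the calls over all genes were 48, 229, 0, 83 and 0, against 261, 124, 0, 36 and 0 without it. No other library shares the prefix of NoTumor-NoCD40 replicate 3, so under the block that library does not enter the fitted differences. In NoTumor-CD40 over NoTumor-NoCD40, 47 members against 30 had lower values at an unadjusted p under 0.05, beside 1369 against 1534 of all 18095 genes. Leaving that library out with no block gave 45 members there, beside 1239 of 19740 genes. With DESeq2 the calls over all genes in the other comparisons were 314, 24, 161 and 16. The ratio of the group mean shares, NoTumor-CD40 over NoTumor-NoCD40, was 0.69 to 0.83 with a library left out and 0.83 as a sum of TPM. The cause of these differences was not tested.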
